A study of Mus musculus with 37 samples.

Results

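RNA-seq of mouse tailbud was used to follow the genes of the Wnt signal itself: the Wnt ligands, their Frizzled receptors, the secreted Frizzled-related proteins (Sfrp) and the R-spondins. Genes were taken by symbol alone, and every row of the count table that carried the name of a Wnt, an Fzd, Sfrp1 to Sfrp5 or Rspo1 to Rspo4 was kept. This gave 37 of the 35542 genes, made up of 19 Wnt ligands, 10 Frizzled receptors, 4 Sfrp genes (Sfrp1, Sfrp2, Sfrp4 and Sfrp5) and 4 R-spondins. Sfrp3 is named Frzb in the table and is described with the other secreted antagonists. The rule itself reads the symbol and no measured value.

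Tailbuds came from 37 embryos collected between day 8 and day 8.5 of gestation, staged by their somites, mesodermal segments that are added pair by pair and so date an embryo, and spanned 6 to 11 of them. All embryos were F1 animals of a C57BL/6 mother and a Castaneus father with an intact Smchd1 gene. The 21 control embryos, Smchd1 wt, came from mothers with floxed Smchd1 alleles and no Cre transgene, and carried Smchd1[fl/+]. The 16 maternally deleted embryos, Smchd1 matΔ, came from mothers with 1 deleted and 1 floxed allele and the MMTV-Cre transgene, which recombines the floxed allele in the oocyte, and carried Smchd1[del/+]. The protein SMCHD1 binds chromatin and keeps certain gene clusters silent. In Smchd1 matΔ embryos the protein supplied by the oocyte and the maternal copy of the gene were both missing, and these losses cannot be told apart. The MMTV-Cre line brought some FVB genome, which the controls need not share. The cut was made some way below the last segmented somite, to leave somite tissue out. The Smchd1 wt groups held 4, 4, 3, 3, 4 and 3 embryos at 6, 7, 8, 9, 10 and 11 somites, and the Smchd1 matΔ groups held 4, 3, 2, 2, 3 and 2. All embryos with 6 somites were female, so sex and stage are partly confounded. At 8 and 9 somites all Smchd1 matΔ embryos were female and the controls held both sexes, so sex and genotype are partly confounded there. Control tailbuds held 149 ± 22.2 CPM (counts per 1000000 counts of the library; SD, n = 21) of Smchd1 RNA itself. Maternally deleted tailbuds held 88.9 ± 13.2 CPM (SD, n = 16), so the labels held.

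Each embryo gave 1 library, with a total of 916444 to 80579115 counts (median 12845991). The 37 genes together took 0.0855 to 0.132% of the counts. Depth was lowest in replicate 3 of Smchd1 matΔ at 6 somites, followed by replicate 2 of Smchd1 wt at 7 somites. In Smchd1 matΔ replicates 1 and 2 at 6 somites, 2.77% and 1.82% of counts fell on the ribosomal RNA locus, against 0.176 to 1.28% in the other 35. The tissue label held: all 9 markers of tailbud and axial progenitors (T, Nkx1-2, Cdx2, Fgf8, Fgf17, Msgn1, Tbx6, Cyp26a1 and Hes7) averaged at least 1 CPM and summed to 645 to 1594 CPM per embryo, while 1 of 6 markers of segmented somite and 2 of 6 of neural tube did. Markers of visceral endoderm, blood and endothelium were also present, at 6 of 6 each. Their sums per embryo were 7.18 to 3868 CPM, 9.53 to 4176 CPM and 154 to 369 CPM. The highest sums of visceral endoderm and of blood were above every tailbud sum. Markers of lateral plate mesoderm and allantois were present too (6 of 6, sums of 148 to 505 CPM per embryo). Definitive and hindgut endoderm stood at 6 of 6 (195 to 401 CPM), and surface ectoderm and notochord and node at 5 of 6 each.

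Wnt proteins are lipid-modified ligands that bind Frizzled receptors on neighbouring cells. With the co-receptors Lrp5 and Lrp6 they stabilise beta-catenin, which acts with TCF/LEF factors on target genes, and with Ror or Ryk co-receptors they steer cell polarity and movement. Sfrp proteins hold Wnts outside the cell, and R-spondins raise the response by sparing Frizzled receptors from the ubiquitin ligases Znrf3 and Rnf43. In the tailbud, Wnt signalling keeps the axial progenitors that supply the spinal cord and the somites.

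TCF/LEF factors recognise short DNA words, and these were looked for in the RefSeq promoters of the genes (build GRCm38.p6). The word CTTTGAT was searched on both strands of the 250 bases before each start. The variants searched with it were CTTTGTT, the second variant CTTTGAA, and the further variant CTTTGTA. Of the 37 genes, 25 had a promoter in the table, with 28 starts in all. At least 1 word was present at 3 of the 28 starts (10.7%), and at 14.8% of all 32851 promoters. The matches lay at Wnt5b, the ligand of highest level per kilobase, at Fzd7 and at Wnt11. Their surroundings are given in the direction of the gene, with the word in capitals, so that the capitals of Fzd7 (CTTTGTT) and Wnt11 (CTTTGAT) show a match on the opposite strand, and those of Wnt5b (CTTTGAT) on the strand of the gene. The Wnt5b stretch was intronic, 71 bases before 1 of its 3 starts, at chr6:119449441-119449467 on the minus strand. The Fzd7 stretch lay 130 bases before its RefSeq start, at chr1:59482007-59482033 on the plus strand. The annotated gene begins further on, at 59482424. The Wnt11 stretch lay before the annotated gene, 51 bases before 1 of its 2 starts, at chr7:98835051-98835077 on the plus strand.
Wnt5b: gtaagtctctCTTTGATctgctccctg
Fzd7: ccacagagaaAACAAAGcgcgctattg
Wnt11: acgtgggcggATCAAAGcgacggtccg
The promoters of Sfrp2 and Wnt7a, which rose with stage in Smchd1 wt tailbuds as described below, held none of the 4 words in this window. No promoter was available for Wnt8a, Wnt5a, Fzd2 and Rspo3, the other genes with a slope past the threshold, so these were not searched. A match is a run of letters, and binding was not measured.

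The first question was which genes of the set were transcribed in the tailbud. A mean of at least 1 CPM over the 37 embryos was taken as expressed. By this measure 29 of the 37 genes were expressed: 15 of 19 ligands, 9 of 10 receptors, 2 of 4 Sfrp genes and 3 of 4 R-spondins. The remaining receptor, Fzd6, was listed at 0 counts, a value that is doubtful for reasons given below. In every embryo 17 genes reached 1 CPM, and 13 averaged at least 10 CPM. A further 6 averaged between 0.1 and 1 CPM, and 2 less. Levels of different genes are compared below as CPM per kilobase of exon, since longer transcripts collect more counts.

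Among the ligands, Wnt5b and Wnt5a, which act mainly on cell polarity and axis elongation, and Wnt3a, which maintains axial progenitors through beta-catenin, stood above the rest. Wnt5b (chromosome 6, 119432531 to 119544347) measured 49.8 ± 7.14 CPM per kilobase (SD, n = 37), Wnt5a (chromosome 14, 28504750 to 28527448) 26.0 ± 6.98 and Wnt3a (chromosome 11, 59248033 to 59290752) 24.4 ± 4.75. These 3 made up 76.2% of the ligand level per kilobase on average, and 64.7 to 85.7% in single embryos. Wnt5a and Wnt3a lay within each other's spread, while Wnt5b was above both by more than their standard deviations. Wnt6 followed at 13.6 ± 4.28, Wnt8a, a ligand of the primitive streak, at 5.21 ± 3.82 and Wnt7a at 2.94 ± 0.935. Wnt4, Wnt11, Wnt2 and Wnt3 measured 2.26, 1.61, 1.43 and 1.25 CPM per kilobase. Each of the first 3 was less than its own standard deviation (0.869, 0.479 and 0.853) above the next. Wnt7b, Wnt2b, Wnt10a, Wnt9a and Wnt9b measured 0.887 to 0.247. Wnt8b, Wnt16, Wnt10b and Wnt1 were below the cutoff, at means of 0.277, 0.209, 0.138 and 0.0328 CPM. Wnt1, a ligand of the midbrain and dorsal neural tube, had 17 counts in all, and 16 of these were in Smchd1 matΔ replicate 2 at 6 somites, the embryo with the highest sum of segmented somite markers (49.6 CPM).

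In CPM, Wnt5b varied little across the series. At 6 somites it measured 124, 144, 146 and 125 CPM in Smchd1 wt and 117, 128, 116 and 124 in Smchd1 matΔ embryos. At 11 somites it measured 91.6, 143 and 149 CPM in Smchd1 wt and 157 and 130 in Smchd1 matΔ embryos. The genotypes overlapped at both stages. Between stages Smchd1 wt embryos overlapped, while in Smchd1 matΔ the highest of 6 somites (128) was just below the lowest of 11. The log2 slope of Wnt5b was -0.02 per somite (SE 0.02) in Smchd1 wt and 0.04 (SE 0.03) in Smchd1 matΔ, and neither passed the test described below. Wnt3a measured 62.1, 75.8, 79.0 and 74.7 CPM in Smchd1 wt and 85.2, 51.3, 77.1 and 68.4 in Smchd1 matΔ embryos with 6 somites. It measured 48.2, 97.2 and 81.3 CPM in Smchd1 wt and 86.6 and 71.4 in Smchd1 matΔ embryos with 11 somites, again with overlap.

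Fzd10 (chromosome 5, 128600844 to 128604093) was the most abundant receptor and the most abundant of all 37 genes per kilobase, at 62.1 ± 7.79 CPM per kilobase (SD, n = 37). Fzd2 followed at 13.3 ± 3.40 and Fzd7 at 9.39 ± 1.87. Together these 3 made up 79.6% of the receptor level per kilobase, with 74.0 to 84.8% in single embryos. Fzd6 entered this share at its listed 0, so the share holds for the other receptors only. Fzd3, a receptor best known from axon guidance and planar polarity, measured 7.68 ± 1.67, Fzd1 7.62 ± 1.23 and Fzd4 4.29 ± 1.06. Fzd7, Fzd3 and Fzd1 lay within their spread of each other. Fzd9, Fzd5 and Fzd8 were low, at 0.980, 0.613 and 0.389 CPM per kilobase.

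Fzd10 was also steady between embryos. At 6 somites it measured 184, 224, 252 and 215 CPM in Smchd1 wt and 181, 174, 211 and 196 in Smchd1 matΔ embryos. At 11 somites the values were 166, 193 and 205 CPM in Smchd1 wt and 244 and 187 in Smchd1 matΔ embryos. All of these groups overlapped. Fzd7 measured 41.3, 30.1, 36.3 and 39.2 CPM in Smchd1 wt and 53.3, 67.2, 33 and 47.3 in Smchd1 matΔ embryos with 6 somites, with overlap through 1 Smchd1 matΔ embryo at 33, the shallowest library. At 11 somites it measured 61.3, 44.0 and 32.5 CPM in Smchd1 wt and 40.9 and 36.7 in Smchd1 matΔ embryos, and the ranges overlapped.

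Fzd6 was listed at 0 counts in all 37 libraries. Its neighbours Baalc, Cthrc1 and Slc25a32 on chromosome 15 were listed at 0, 1 and 1 counts over all libraries, while Atp6v1c1 and Dcaf13 on either side of them had 36710 and 12900. Slc25a32 encodes a mitochondrial carrier that most cells use, so the 0 of Fzd6 was not read as absence of its RNA.

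Of the secreted antagonists, Sfrp2 and Sfrp1 were expressed, at 13.1 ± 2.91 and 8.10 ± 1.52 CPM per kilobase (SD, n = 37). Sfrp5 and Sfrp4 averaged 0.360 and 0.707 CPM, with 142 and 369 counts in all. Sfrp1 measured 32.6, 31.3, 29.6 and 31.6 CPM in Smchd1 wt and 28.1, 51.9, 40.7 and 39.6 in Smchd1 matΔ embryos with 6 somites. At 11 somites it measured 46.5, 39.5 and 32.0 CPM in Smchd1 wt and 36.2 and 39.2 in Smchd1 matΔ embryos. The genotypes overlapped at both stages.

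Rspo3 (chromosome 10, 29452416 to 29535867) was the predominant R-spondin, at 44.1 ± 10.7 CPM per kilobase (SD, n = 37). Rspo1 measured 1.01 ± 0.367 and Rspo4 0.431 ± 0.223, and Rspo2, known from limb outgrowth, averaged 0.300 CPM. At 6 somites Rspo1 measured 1.32, 1.57, 2.15 and 3.36 CPM in Smchd1 wt and 2.32, 2.70, 2.20 and 1.60 in Smchd1 matΔ embryos. At 11 somites it measured 2.21, 1.45 and 1.12 CPM in Smchd1 wt and 1.71 and 1.36 in Smchd1 matΔ embryos, and all groups overlapped. Rspo4 stood at 1.16, 0.786, 1.66 and 1.80 CPM in Smchd1 wt embryos with 6 somites. In Smchd1 matΔ embryos of that stage it was at 0 in replicates 1 and 3 and at 1.89 and 1.36 CPM in replicates 2 and 4, so those values spanned the control range. At 11 somites Rspo4 measured 1.13, 1.09 and 0.449 CPM in Smchd1 wt and 0.784 and 0.679 in Smchd1 matΔ embryos.

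**Figure D1:**
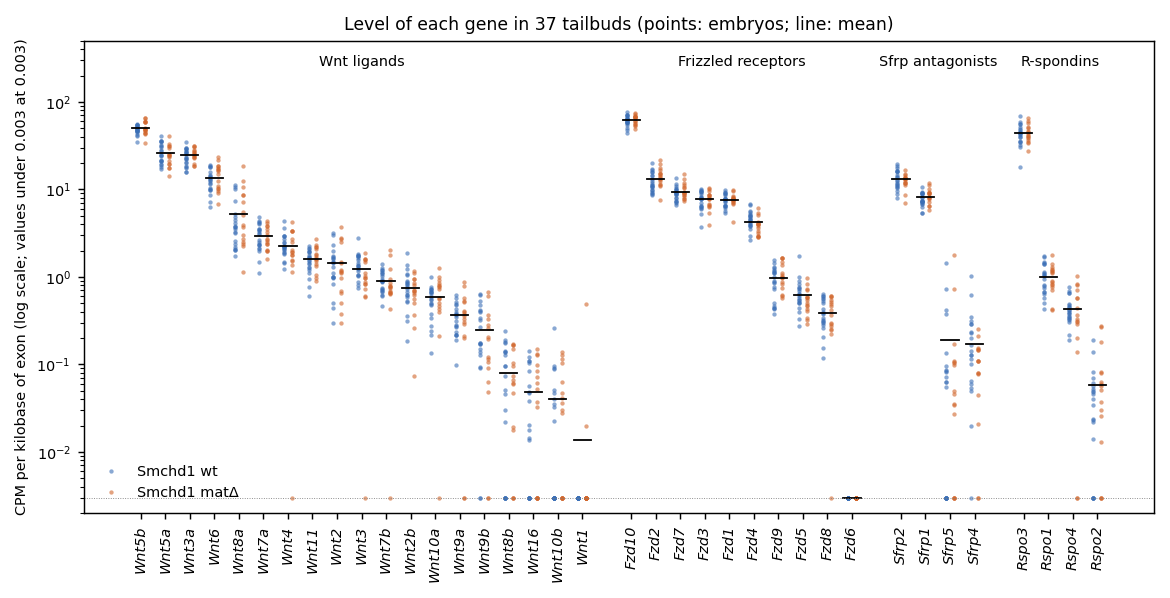
Level of each of the 37 genes in CPM per kilobase of exon on a log axis, in 4 groups by role; each point is an embryo (blue Smchd1 wt, orange Smchd1 matΔ), the black line is the mean over 37 embryos, and values under 0.003 are drawn at 0.003. Fzd10, Wnt5b and Rspo3 lead their groups at 62.1, 49.8 and 44.1 CPM per kilobase, and Fzd6 is at 0 in every embryo.

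Some of these genes share exonic sequence with a transcript on the other strand, and the counts did not separate strands. The shared part was 4.58% of the exons of Wnt5a, 16.1% of Sfrp2, 13.1% of Rspo3, 17.8% of Fzd5, 8.80% of Wnt11 and 6.61% of Wnt7b. These are shares of exon length, and the part of the counts that came from the other strand was not measured. The antisense partners of Wnt5a, Sfrp2 and Rspo3 had 2747, 2851 and 8509 counts, against 111691, 16680 and 72487 for the genes themselves. Those of Fzd5 and Wnt7b had 233 and 43 counts, against 2223 and 2569. For the partner of Wnt11 no counts were available.

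The next question was how the genes changed from 6 to 11 somites. The slope of log2 expression on somite number was fitted across all genes with edgeR's quasi-likelihood test, separately in the 21 Smchd1 wt and the 16 Smchd1 matΔ embryos, and p-values were adjusted by the Benjamini-Hochberg method over all genes tested. In Smchd1 wt tailbuds, Wnt8a fell and Wnt5a, Wnt7a, Sfrp2 and Fzd2 rose. In Smchd1 matΔ tailbuds, Wnt8a fell and Wnt5a and Rspo3 rose. Of 30 genes tested in Smchd1 wt, 5 passed an adjusted p of 0.05, 4 upwards and 1 downwards. Among all 15667 genes tested, 5.65% passed, 2.9% upwards and 2.75% downwards. Of 32 genes tested in Smchd1 matΔ, 3 passed, 2 upwards and 1 downwards, against 4.01% of all 16222 (2.42% upwards and 1.59% downwards). The median slope of the tested genes was 0.03 and 0.04 log2 units per somite, and that of all genes was 0.00 in both genotypes. Wnt8b, Wnt16, Wnt10b, Wnt1 and Fzd6 had too few counts for either fit, and Sfrp5 and Rspo2 too few in Smchd1 wt. In whole tissue, fewer cells of a type and less RNA per cell cannot be told apart. Whether embryos with 6 and 11 somites overlapped is given below as a description only. Groups this small can lie apart without a trend, and the share over all genes was not counted. Fzd3 and Wnt3 also lay apart in both genotypes, and their slopes passed in neither of these fits.

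Wnt8a was the only gene of the set to fall past the threshold, in both genotypes. In Smchd1 wt embryos it measured 18.6, 19.6, 8.44 and 17.8 CPM at 6 somites and 6.08, 6.63 and 3.03 CPM at 11 somites. Smchd1 matΔ embryos had 32.4, 18.6, 8.81 and 15.1 CPM at 6 somites and 4.77 and 5.25 CPM at 11 somites. In both genotypes every embryo with 6 somites was above every embryo with 11, and the means were 3.07-fold and 3.74-fold higher at 6 somites. The Smchd1 wt means from 6 to 11 somites were 16.1, 8.32, 5.78, 4.71, 4.86 and 5.25 CPM. Those of Smchd1 matΔ were 18.7, 16.6, 7.03, 4.45, 4.83 and 5.01 CPM. Both series dropped by 9 somites and were level from there on. The log2 slope was -0.33 per somite (SE 0.06, adjusted p = 0.0020) in Smchd1 wt and -0.47 (SE 0.08, adjusted p = 0.0013) in Smchd1 matΔ. Wnt8a passed the test in Smchd1 wt under 30 of 30 alternatives and in Smchd1 matΔ under 25 of 25.

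Wnt5a rose. In Smchd1 wt embryos it measured 154, 167, 214 and 140 CPM at 6 somites and 280, 282 and 320 CPM at 11 somites. Smchd1 matΔ embryos had 137, 110, 194 and 154 CPM at 6 somites and 246 and 259 CPM at 11 somites. The stages did not overlap in either genotype, and the means rose 1.74-fold and 1.70-fold. The log2 slope was 0.15 per somite (SE 0.03, adjusted p = 0.0070) in Smchd1 wt and 0.17 (SE 0.04, adjusted p = 0.0071) in Smchd1 matΔ. In Smchd1 matΔ the call was lost without the 2 libraries rich in ribosomal RNA (slope 0.14, adjusted p = 0.065).

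Sfrp2 measured 22.5, 20.4, 23.0 and 25.6 CPM in Smchd1 wt embryos with 6 somites and 34.7, 34.7 and 30.2 CPM at 11 somites. Smchd1 matΔ embryos had 15, 25.6, 18.7 and 28.0 CPM at 6 somites and 28.2 and 32.7 CPM at 11 somites. The stages did not overlap in either genotype, but by a narrow margin in Smchd1 matΔ. The log2 slope was 0.15 per somite (SE 0.03, adjusted p = 0.0034) in Smchd1 wt and 0.09 (SE 0.03, adjusted p = 0.123) in Smchd1 matΔ, where it did not pass.

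Wnt7a, a ligand known for dorsal patterning of the limb, was low but rose in Smchd1 wt embryos. It measured 4.65, 7.99, 8.28 and 3.48 CPM at 6 somites and 10.2, 10.8 and 11.3 CPM at 11 somites, without overlap. Smchd1 matΔ embryos had 6.35, 8.67, 12.1 and 7.48 CPM at 6 somites and 12 and 8.34 CPM at 11 somites, with overlap. The log2 slope was 0.20 per somite (SE 0.05, adjusted p = 0.0139) in Smchd1 wt and 0.12 (SE 0.05, adjusted p = 0.226) in Smchd1 matΔ.

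Rspo3 measured 135, 122, 133 and 122 CPM in Smchd1 wt embryos with 6 somites and 137, 213 and 182 CPM at 11 somites. Smchd1 matΔ embryos had 105, 85.2, 141 and 119 CPM at 6 somites and 162 and 200 CPM at 11 somites. The stages did not overlap in either genotype. The log2 slope was 0.08 per somite (SE 0.04, adjusted p = 0.272) in Smchd1 wt, where 1 embryo with 10 somites lay far below the others at 55.9 CPM (the rest of that group were 140 to 173). It was 0.13 (SE 0.03, adjusted p = 0.0265) in Smchd1 matΔ. That call was lost without the libraries rich in ribosomal RNA (adjusted p = 0.173), and also without replicate 1 (0.0638) or replicate 2 (0.0831) at 6 somites, replicate 3 at 10 somites (0.0562) or replicate 2 at 11 somites (0.112), these being adjusted p-values of the Smchd1 matΔ slope. The slope itself stayed between 0.10 and 0.12 in these 5 cases. In Smchd1 wt, Rspo3 passed in females alone and without replicate 1 at 10 somites.

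Fzd2, a receptor that can bind Wnt5a, was the only receptor to pass, and only in Smchd1 wt. It measured 36.0, 33.9, 43.8 and 31.5 CPM in Smchd1 wt embryos with 6 somites and 60.9, 53.7 and 40.5 CPM at 11 somites, with overlap at the lowest value. The means stood at 36.3, 38.4 and 36.2 CPM at 6, 7 and 8 somites and at 59.7, 54.5 and 51.7 CPM at 9, 10 and 11 somites, a step between 8 and 9 somites. In Smchd1 matΔ embryos the means were 58.9, 50.2, 45.2, 50.2, 57.7 and 44.5 CPM, without such a step. The log2 slope was 0.14 per somite (SE 0.03, adjusted p = 0.0090) in Smchd1 wt and -0.04 (SE 0.04, adjusted p = 0.598) in Smchd1 matΔ. A single slope for all 37 embryos, an alternative chosen after seeing the data, was 0.06 for Fzd2 and did not pass (adjusted p = 0.185).

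The 3 genes nearest to the threshold in Smchd1 wt were Fzd8 at 0.18 log2 units per somite (SE 0.07, adjusted p = 0.112), Fzd7 at 0.08 (SE 0.03, adjusted p = 0.115) and Sfrp1 at 0.07 (SE 0.03, adjusted p = 0.121). In Smchd1 matΔ they were Sfrp5 at -0.81 (SE 0.23, adjusted p = 0.0509), Wnt3 at 0.22 (SE 0.07, adjusted p = 0.0807) and Wnt7b at 0.23 (SE 0.07, adjusted p = 0.0922). Sfrp5 rested on very few counts: 22 and 19 in the libraries rich in ribosomal RNA and at most 4 in any other Smchd1 matΔ embryo. It passed the filter on low counts only through these libraries, both of 6 somites. The direction of its slope was thus tied to the filter, and its p is no support for a fall. With all 37 embryos in a single slope, 9 of 29 genes passed, against 19.3% of all 14733 genes (9.73% upwards and 9.6% downwards). These were Wnt8a downwards and Wnt5a, Sfrp2, Wnt7a, Rspo3, Wnt3, Wnt7b, Fzd8 and Fzd3 upwards, and the slopes of the last 4 were 0.15, 0.13, 0.15 and 0.08 log2 units per somite.

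**Figure D2:**
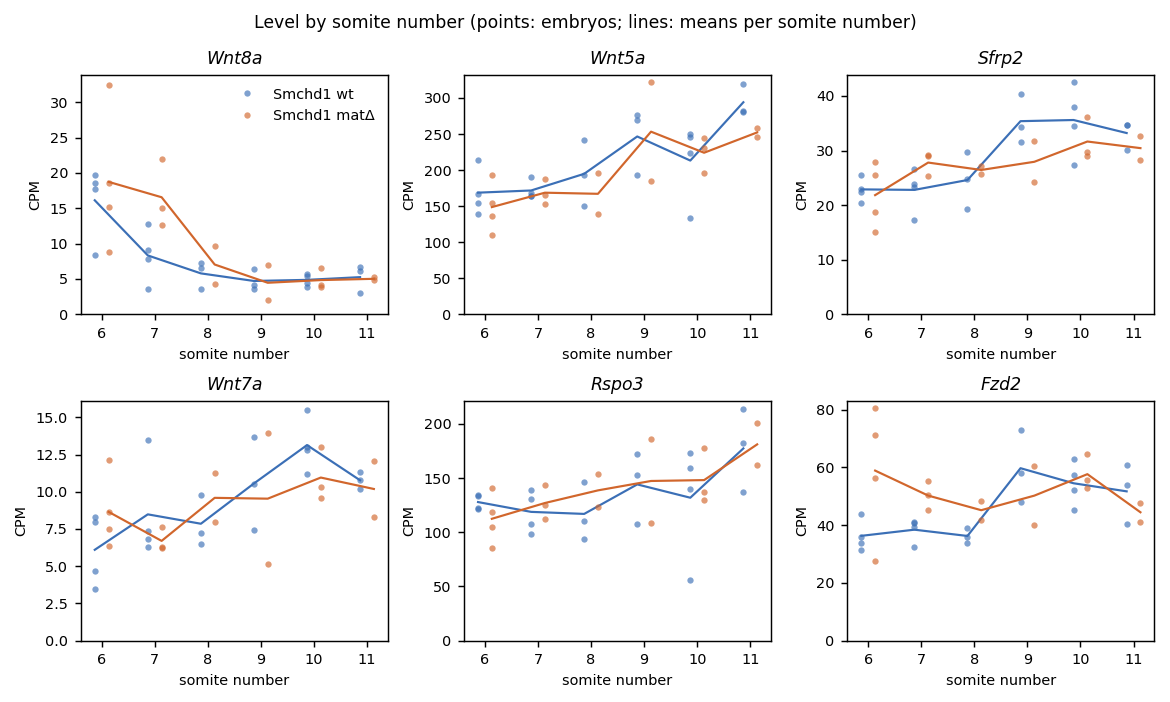
Level in CPM (vertical axis) against somite number for the 6 genes whose slope passed the test in at least 1 genotype; points are embryos (blue Smchd1 wt, orange Smchd1 matΔ) and lines join the means of each somite number. Wnt8a falls to about 5 CPM by 9 somites in both genotypes, Wnt5a rises in both, and Fzd2 is higher in Smchd1 matΔ than in Smchd1 wt means from 6 to 8 somites, while from 9 to 11 somites the means cross.

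**Figure D3:**
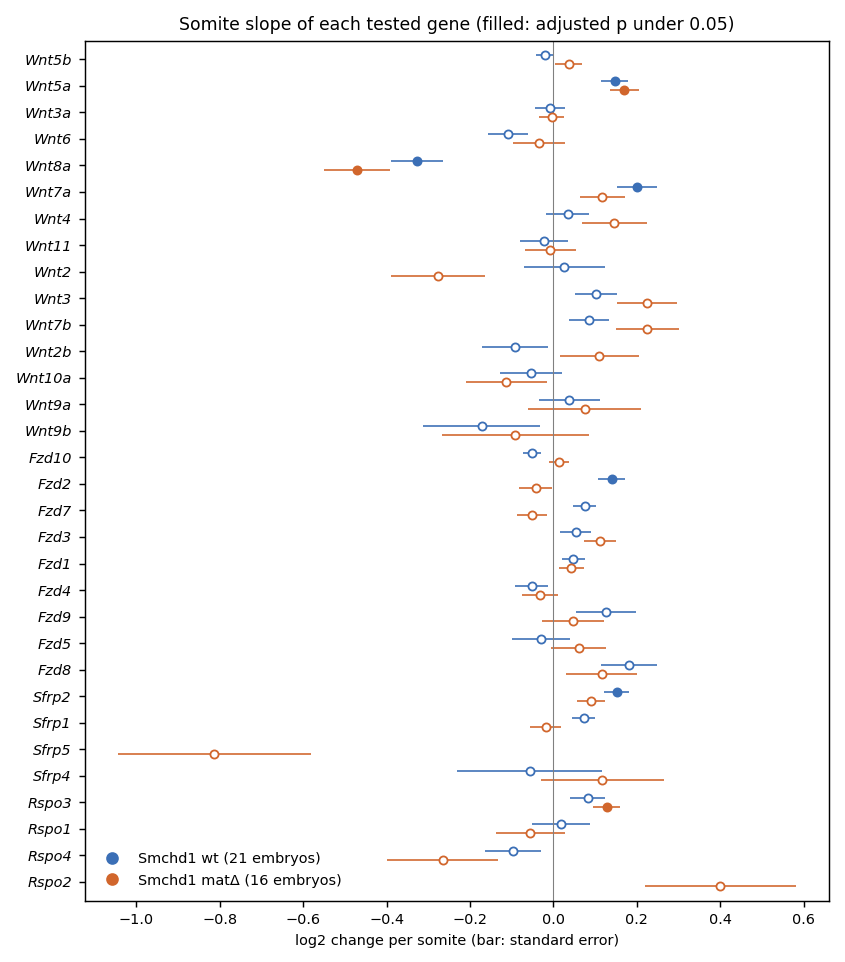
Log2 change per somite of each tested gene, with standard errors as bars, in Smchd1 wt (blue, 21 embryos) and Smchd1 matΔ (orange, 16 embryos); filled points have an adjusted p under 0.05. Wnt8a lies lowest of the genes that passed, at -0.33 and -0.47, and 17 of 30 and 18 of 32 slopes are positive.

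Signs of other tissues also moved with somite number. Of the 6 endothelial markers, 4 rose in Smchd1 wt and 5 in Smchd1 matΔ, with summed levels of 165 to 243 CPM at 6 somites and 160 to 278 CPM at 11 somites in Smchd1 wt, and 154 to 218 and 187 to 238 CPM in Smchd1 matΔ. Of the 6 primitive erythroid markers, 1 rose in each genotype, with sums of 53.5 to 144 CPM at 6 somites and 587 to 1178 CPM at 11 somites in Smchd1 wt, and 39.6 to 3102 and 1778 to 4176 CPM in Smchd1 matΔ. None of the 6 visceral endoderm markers passed (edgeR, 2 in Smchd1 wt and 0 in Smchd1 matΔ at an unadjusted p under 0.05), with sums of 400.1 to 1891 CPM at 6 somites and 7.18 to 283 CPM at 11 somites in Smchd1 wt, and 1127 to 1713 and 19.2 to 464 CPM in Smchd1 matΔ. In Smchd1 wt, 3 of 6 endoderm markers fell and 1 rose, and the neural tube marker Sox1 rose. The part of these tissues in the slopes of the Wnt genes was not tested. Sums of the tailbud markers were 1041 to 1297 CPM at 6 somites and 823 to 1594 CPM at 11 somites in Smchd1 wt, and 943 to 1186 and 1243 to 1397 CPM in Smchd1 matΔ. Of the 9, Cyp26a1 rose in both genotypes, and in Smchd1 matΔ Fgf17 rose and Nkx1-2 fell. In Smchd1 matΔ the endoderm marker Trh fell, 1 of 6 of that list.

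The study's main contrast was the genotype at matched somite number. Over all stages, with somite number and sex as covariates, none of 29 genes tested by edgeR passed the adjusted threshold, and DESeq2 called none either. Of all 14733 genes tested, 0.0136% passed, 0.00679% upwards and 0.00679% downwards, the latter being Smchd1. At an unadjusted p under 0.05 there were 3 of 29 genes, against 5.66% of all genes. The differences (log2, Smchd1 matΔ minus Smchd1 wt) had a median of 0.04, and 16 of 29 were positive, against 51.1% of all genes.

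The genes of highest level showed small differences. Wnt5b differed by 0.09 (SE 0.07), Wnt5a by -0.09 (SE 0.08), Wnt3a by 0.07 (SE 0.08), Fzd10 by 0.04 (SE 0.06) and Rspo3 by 0.04 (SE 0.10), all on the log2 scale. Each was below 2 standard errors. Fzd4, a receptor with a role in blood vessels, had the smallest p, at -0.25 (SE 0.10, unadjusted p = 0.0152, adjusted p = 0.864). Its mean was higher in Smchd1 matΔ at 0 of 6 stages. Endothelial marker sums were 160 to 291 CPM in Smchd1 wt and 154 to 369 CPM in Smchd1 matΔ embryos over all stages. The fitted difference was positive for 0 of 6 endothelial markers (median -0.09, none passing by edgeR and 0 at an unadjusted p under 0.05), the direction of Fzd4, and their part in Fzd4 was not tested. Fzd2 was at 0.23 (SE 0.10, unadjusted p = 0.0292), Wnt3, a ligand needed for the primitive streak, at -0.33 (SE 0.16, unadjusted p = 0.0420), Wnt6 at 0.23 (SE 0.14, unadjusted p = 0.104) and Sfrp1 at 0.13 (SE 0.09, unadjusted p = 0.145), with adjusted p from 0.864 to 0.866. The mean of Wnt3 was higher in Smchd1 matΔ at 1 of 6 stages, and those of Wnt5b, Wnt11 and Rspo3 at 5 of 6.

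The windows of 6 to 8 and 9 to 11 somites were then fitted apart. At 6 to 8 somites (20 embryos) edgeR called none of 29 genes, and 5 had an unadjusted p under 0.05, against 8.13% of all 14495 genes. The background of adjusted calls was 0.0069%. The difference was positive for 19 of 29 genes, against 48.2% of all genes. Fzd2 had the smallest p, at 0.50 log2 units higher in Smchd1 matΔ (SE 0.12, unadjusted p = 0.00042, adjusted p = 0.308). Fzd7 followed at 0.31 (SE 0.11, unadjusted p = 0.0115, adjusted p = 0.477) and Fzd5 at -0.49 (SE 0.20, unadjusted p = 0.0229, adjusted p = 0.556). DESeq2's Wald test called 1 gene, Fzd2 (adjusted p = 0.0338), and edgeR without a filter on low counts called it as well (adjusted p = 0.0114). In the same window the difference was positive for 0 of 6 visceral endoderm and 0 of 6 endothelial markers (medians -0.62 and -0.22 on the log2 scale, 2 of each at an unadjusted p under 0.05). It was positive for 8 of 9 tailbud markers (median 0.16). Of segmented somite, 1 marker was tested, at 1.49 (unadjusted p under 0.05). Over all stages and in the difference of slopes 1 was tested as well, at 0.75 and -0.54 (unadjusted p under 0.05 in each). Sums of segmented somite markers at 6 somites were 2.48 to 6.97 CPM in Smchd1 wt and 0 to 49.6 CPM in Smchd1 matΔ embryos. None of these markers passed by edgeR, and their part in the result was not tested.

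At 6 somites Fzd2 measured 36.0, 33.9, 43.8 and 31.5 CPM in Smchd1 wt and 80.4, 71.2, 27.5 and 56.5 CPM in Smchd1 matΔ embryos. The 2 highest values belong to the libraries rich in ribosomal RNA and the lowest to the shallowest library. At 7 somites it measured 39.3, 32.6, 40.8 and 41.0 CPM in Smchd1 wt and 50.3, 45.3 and 55.1 CPM in Smchd1 matΔ embryos. At 8 somites it measured 33.7, 35.9 and 39.1 CPM in Smchd1 wt and 48.5 and 41.9 CPM in Smchd1 matΔ embryos. The genotypes did not overlap at 7 and 8 somites and overlapped at 6 through 1 embryo. At 8 somites both Smchd1 matΔ embryos were female, while Smchd1 wt replicates 1 and 2 were male. Fzd2 was picked by its p and the groups are small, so the separation is a description and no further support. Without the libraries rich in ribosomal RNA the difference over 6 to 8 somites was 0.32 (unadjusted p = 0.0037, adjusted p = 0.464), and without the 2 shallowest libraries 0.54 (adjusted p = 0.157).

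At 9 to 11 somites (17 embryos) edgeR and DESeq2 called none of 29 genes. At an unadjusted p under 0.05 there was 1 gene, Sfrp2, against 1.75% of all 14909 genes, and 0.00671% of all genes passed the adjusted threshold. The difference was positive for 14 of 29 genes, against 52.4% of all genes. Sfrp2 was at -0.21 (SE 0.10, unadjusted p = 0.0441), Rspo4 at -0.52 (SE 0.25, unadjusted p = 0.0523) and Wnt5b at 0.19 (SE 0.11, unadjusted p = 0.0996), each with an adjusted p of 0.9997. Fzd2 was at -0.12 (SE 0.11) in this window. Here the difference was positive for 6 of 6 visceral endoderm markers (median 1.34), 4 of 6 endothelial markers (median 0.00) and 7 of 9 tailbud markers (median 0.14), none passing by edgeR (0, 0 and 1 at an unadjusted p under 0.05), and their part in the result was not tested. The values of Fzd2 overlapped between the genotypes, at 73.0, 48.2 and 58.1 CPM in Smchd1 wt and 60.6 and 39.9 CPM in Smchd1 matΔ embryos with 9 somites. At 10 somites they were 45.2, 57.5, 63.0 and 52.3 CPM in Smchd1 wt and 52.8, 55.6 and 64.6 CPM in Smchd1 matΔ embryos.

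**Figure D4:**
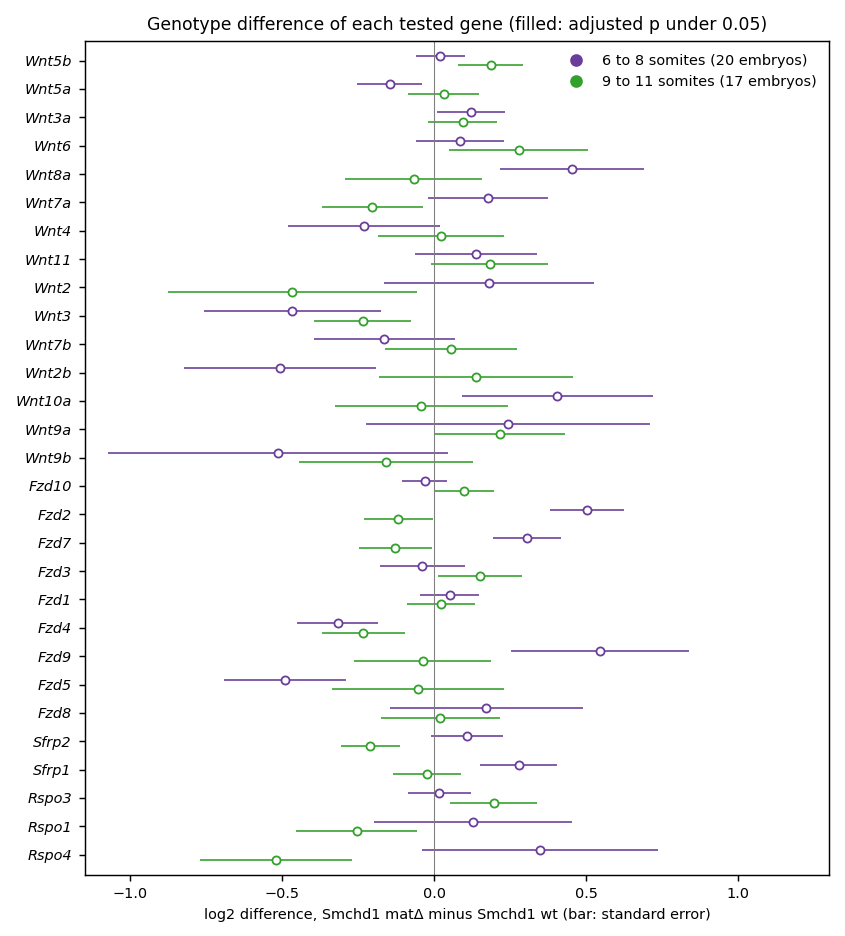
Log2 difference, Smchd1 matΔ minus Smchd1 wt, of each of 29 tested genes at 6 to 8 somites (purple, 20 embryos) and at 9 to 11 somites (green, 17 embryos), with standard errors as bars; no point is filled because none had an adjusted p under 0.05 by edgeR. Fzd2 is at 0.50 in the early and -0.12 in the late window.

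Whether the slope itself differed between genotypes was tested as an interaction over all 37 embryos. None of 29 genes passed by edgeR or DESeq2, nor did any of the 14733 genes (0.0%). At an unadjusted p under 0.05 there were 2 of 29, against 3.67% of all genes, and 16 of 29 differences were positive, against 49.7% of all genes. Those under 0.05 were Fzd2, whose slope in Smchd1 matΔ was lower by -0.18 log2 units per somite (SE 0.05, unadjusted p = 0.0015), and Fzd7, lower by -0.13 (SE 0.05, unadjusted p = 0.0059). Wnt2 came next at -0.31 (SE 0.16, unadjusted p = 0.0563). The adjusted p of all 3 was 0.9998. For Wnt8a and Wnt5a the slopes differed by -0.14 (SE 0.10) and 0.03 (SE 0.05). Thus the calls made in a single genotype (Sfrp2, Wnt7a and Fzd2 in Smchd1 wt, Rspo3 in Smchd1 matΔ) were not shown to differ between genotypes.

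At single stages the groups held 2 to 4 embryos, and these fits had no term for sex. Over the 6 stages 178 tests were made on these genes, edgeR and DESeq2 called none, and the lowest adjusted p was 0.567. At an unadjusted p under 0.05 there were 3, 4, 2, 1, 0 and 3 tests from 6 to 11 somites, 13 in all, against 3.91% of all 89332 tests, of which 0.0% passed after adjustment.

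The rest of the Wnt pathway was read from the same fits, with 51 genes on 8 lists. In Smchd1 wt, 46 were tested, of which 4 rose and 3 fell, against 5.65% of all genes called in either direction. In Smchd1 matΔ, 49 were tested, of which 3 rose and 5 fell, against 4.01% of all genes. Of the 5, Cer1 and Dkk4 had enough counts for the test only with the 2 libraries rich in ribosomal RNA, both of 6 somites. Passing the filter there tied them to a fall, so they are no support for one. None of 46, 45 and 46 tested passed between genotypes over all stages, at 6 to 8 and at 9 to 11 somites by edgeR (4, 7 and 0 at an unadjusted p under 0.05, against 5.66%, 8.13% and 1.75% of all genes). The median slope over the lists was 0.01 log2 units per somite in Smchd1 wt and -0.01 in Smchd1 matΔ.

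Of the 8 secreted antagonists tested in Smchd1 wt, 3 rose. Shisa3, which holds back Frizzled maturation, rose by 0.50 per somite (SE 0.08, adjusted p = 0.00057), Sost, a ligand of Lrp5 and Lrp6 that blocks Wnt signalling, by 0.43 (SE 0.07, adjusted p = 0.00025) and Dkk1, which acts in the same way, by 0.22 (SE 0.06, adjusted p = 0.0178). The call of Dkk1 was lost without Smchd1 wt replicate 3 at 11 somites (adjusted p = 0.0699). The same 3 passed in Smchd1 matΔ, at 0.44, 0.43 and 0.29 log2 units per somite. In females alone the Smchd1 matΔ slopes of Shisa3 and Sost were 0.49 and 0.41 and did not pass (adjusted p = 0.0676 and 0.0759). Dkk1 measured 22.4, 20.7, 37.3 and 29.3 CPM in Smchd1 wt embryos with 6 somites and 53.6, 57.3 and 81.9 CPM at 11 somites. It measured 15, 19.1, 31.9 and 19.9 CPM in Smchd1 matΔ embryos with 6 somites and 63.1 and 49.2 CPM at 11 somites. The stages did not overlap in either genotype.

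In Smchd1 matΔ, 2 further antagonists passed downwards, Cer1 at -2.68 per somite and Dkk4 at -1.27. Cer1 stood at 6.35 and 12.9 CPM in the libraries rich in ribosomal RNA and at no more than 0.261 CPM in any other embryo. Dkk4, named after its values were seen, stood at 1.08 and 1.31 CPM in these libraries and at 0 to 0.668 CPM in the other Smchd1 matΔ embryos, and reached 1.65 CPM in Smchd1 wt replicate 2 at 7 somites. Without the 2 libraries neither Cer1 nor Dkk4 had enough counts to be tested in Smchd1 matΔ, so the direction of both slopes was tied to the filter.

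Among genes of Wnt processing and reception, Notum, an enzyme that removes the lipid from Wnts, fell in Smchd1 wt by -0.21 per somite (SE 0.03, adjusted p = 4.4e-05). It measured 40.3, 58.7, 52.1 and 48.9 CPM at 6 somites and 19.3, 24.7 and 26.2 CPM at 11 somites, without overlap. In Smchd1 matΔ its slope was -0.11 (SE 0.04) and did not pass (adjusted p = 0.161). The co-receptor Ror1, which binds Wnt5a, fell by -0.18 (SE 0.05, adjusted p = 0.0191) in Smchd1 wt and by -0.21 (SE 0.06, adjusted p = 0.0499) in Smchd1 matΔ. The first was lost without Smchd1 wt replicate 2 at 6 somites (adjusted p = 0.0632) or replicate 3 at 11 somites (0.0511), and the second passed under 8 of 25 alternatives. Ror2 fell in Smchd1 matΔ by -0.12 (SE 0.03, adjusted p = 0.0117), and no longer passed without the libraries rich in ribosomal RNA (adjusted p = 0.103).

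Of 4 feedback targets, Nkd1 fell by -0.10 (SE 0.02, adjusted p = 0.0126) and Nkd2, its paralogue, rose by 0.15 (SE 0.04, adjusted p = 0.0090) in Smchd1 wt. Sp5 fell by -0.15 (SE 0.03, adjusted p = 0.0072) in Smchd1 matΔ. All 4 feedback targets had an unadjusted p under 0.05 by edgeR in each genotype, and 1 of the 4 slopes was positive in each. The difference of slopes passed for none of the 4, and 0 had an unadjusted p under 0.05. The calls of Nkd1, Nkd2 and Sp5 were thus not shown to differ between genotypes. Of 8 cytoplasmic transducers, 4 TCF/LEF factors, 6 tested planar polarity genes and 4 tested genes of R-spondin reception and Frizzled turnover, none passed in either genotype by edgeR. At an unadjusted p under 0.05 there were 2, 0, 0 and 1 in Smchd1 wt and 3, 2, 2 and 1 in Smchd1 matΔ.

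**Figure D5:**
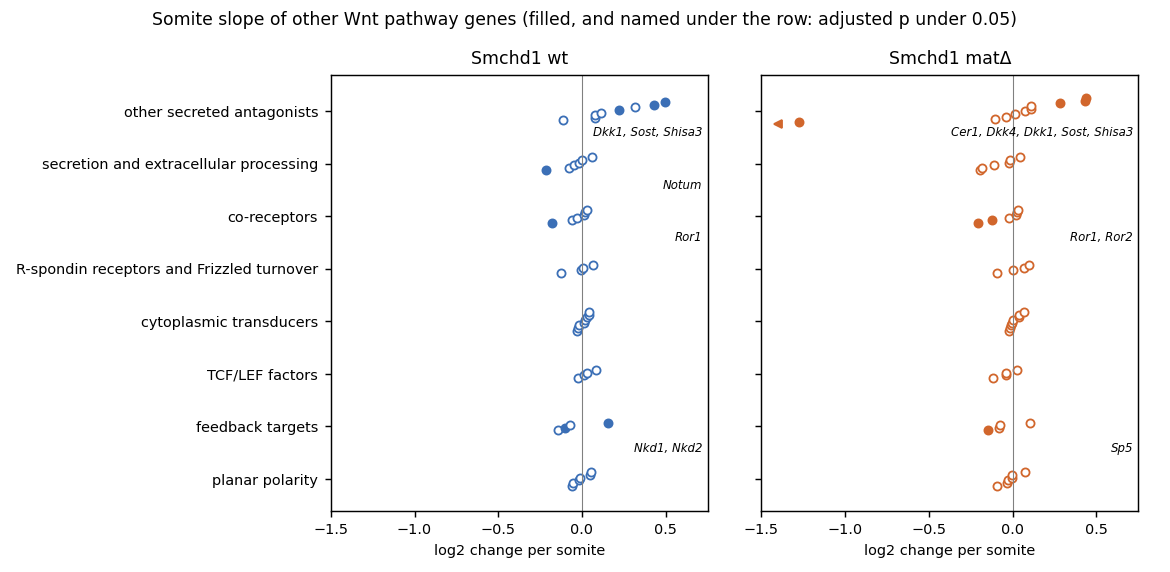
Log2 change per somite of the other Wnt pathway genes by list, in Smchd1 wt (left, blue) and Smchd1 matΔ (right, orange); points are genes, filled points have an adjusted p under 0.05 and are named under their row. Dkk1, Sost and Shisa3 are filled on the positive side in both genotypes, and the arrowhead marks Cer1, which lies beyond the axis at -2.68.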

How the data were processed

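The authors prepared poly(A) RNA libraries with stranded or unstranded TruSeq kits, without stating the kit of each library. Per the labels and the submitters' processing notes, bcl2fastq, Trim Galore 0.4.4 and HISAT2 2.0.5 were used with build GRCm38.p6, and genes were quantified in SeqMonk. The deposited values used here are the authors' raw counts, whole numbers per gene and embryo without normalisation. Tables of the authors' Hox log2 RPKM values and of their own test results (p-values, false discovery rates and fold changes) were not used here. No per-sample column was left unused.

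Of 35591 rows, 49 repeated an identifier and were dropped, and 26 symbols turned into dates were restored. Exon lengths came from GENCODE M21, in which all 37 genes have the same start and end as in the table. The labels do not name a batch. Replicates are embryos, and libraries within a group differed by more than sampling noise (chi-square per degree of freedom 5.12 to 72.3). No molecular identifiers are named in the sources used here.

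Counts were tested with edgeR 4.0.16 (R 4.3.3) by its two-sided quasi-likelihood test after filterByExpr (minimum count 10) and TMM, with a Benjamini-Hochberg threshold of 0.05. CPM values use TMM library sizes. A prior count of 2 was used for the log2 CPM of single embryos, and the edgeR fits kept that tool's default. Slopes had no covariate, genotype fits and the difference of slopes had somite number and sex, and single stages none. The scripts were tested on simulated data. Alternatives were DESeq2 1.42.0, its size factors, no filter, other covariates, females alone, and leaving out libraries.

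Genes were named as follows: all 37 by level, those past a threshold, and the 3 (5 for the genotype over all stages) with the smallest p in each fit. Of the other pathway genes, the called ones with the 2 smallest p per list and fit were named. The gene families were picked by name and the lists by pathway, but both choices were made with earlier results of these data known.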

Additional observations from a re-analysis of the deposited data

Results flagged for a closer look

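In 4 groups of 4 embryos, 16 of the genes were checked for an embryo lying apart from the other 3 by Dixon's criterion, and 6 of 64 checks were positive. Chance gives about 1 in 20. In 3 of the 6 the embryo was Smchd1 wt replicate 2 at 7 somites, the second shallowest library: Wnt7a measured 13.5 CPM (6.27 to 7.33 in the others), Wnt3 8.56 CPM (2.27 to 3.23) and Wnt5a 191 CPM (164 to 168). Wnt8a was low in Smchd1 wt replicate 3 at 6 somites, at 8.44 CPM against 17.8 to 19.6. Sfrp1 was low in Smchd1 wt replicate 1 at 7 somites, at 23.7 CPM against 31.1 to 32.5. It was also low in Smchd1 wt replicate 1 at 10 somites, at 27.5 CPM against 38.5 to 40.2, the library in which the 37 genes took the smallest share of counts (0.0855%). The slopes of Wnt5a, Wnt7a and Wnt8a in Smchd1 wt passed the threshold without each of these embryos.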

How the results depend on the processing

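Genes past the threshold, or named for the smallest p, in a fit did not change sign in that fit under the alternatives run. The Fzd2 slope in Smchd1 matΔ, which did not pass, went from -0.04 to 0.02 without the libraries rich in ribosomal RNA. The median over the genes did in the difference of slopes (0.00, with -0.02 to 0.03 over the alternatives) and at 9 to 11 somites (-0.02, with -0.12 to 0.04). The number of genes with a slope in Smchd1 wt was 5, and 5 to 8 with each embryo left out (8 without replicate 1 at 10 somites). It was 9 with a single slope for all 37 embryos, an alternative chosen after seeing the data, as was a filter set from the design. With sex as a covariate the same 5 passed. The number in Smchd1 matΔ was 3, with 2 to 4 on leaving out each embryo, 6 by DESeq2, 5 with a replicate block, 1 without the libraries rich in ribosomal RNA. Sfrp5, whose direction was tied to the filter, was among the 6 and among the 5. At 6 to 8 somites 0 genes differed between genotypes, 0 to 0 with each embryo left out, and 1 by DESeq2 or without a filter. At single stages 0 tests passed, and 1 without a filter. The number of expressed genes was 29, 24 at a mean of 2 CPM, 30 at 0.5 CPM and 27 by the median.

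Replicate numbers were shared between genotypes, but over 16 pairs of same-numbered embryos the correlation of deviations ran from -0.292 to 0.651 with 4 above 0.1, so the numbers do not mark a pairing. The replicate block changed no count of calls for the Smchd1 wt slope (5) or the genotype comparisons.

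Of the values of single genes and medians, 1084 were labelled unchanged, 7 lost the threshold and 18 gained it. The 199 medians among the 1084 have no threshold. They were labelled unchanged where they moved by less than the SD, within groups, of the mean log2 level of the genes. At 1 CPM the shallowest library holds about 1 count, so genes near the cutoff rest on the deeper libraries.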
